A study of Mus musculus with 4 samples.

Results

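Aminoacyl-tRNA synthetases are the enzymes that join each amino acid to its transfer RNA (tRNA), the step that supplies ribosomes with building blocks. Their genes were taken from the array by name: every probe set annotated with exactly 1 gene symbol that follows the naming pattern of these enzymes (an amino acid letter followed by "ars", or Farsa, Farsb and Fars2). This gave 34 probe sets for 33 genes, of 22180 genes named on the array. Symbols ending in 2 stand for the mitochondrial enzymes, which left 17 cytosolic and 16 mitochondrial genes. The rule used names and no measured value. The probe set of Aars, for alanine in the cytosol, also carries the name of another gene and was left out, and Eprs, whose symbol falls outside the pattern, is described below with the partner genes.

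Animal cells keep separate sets of synthetases for the cytosol and for mitochondria, both encoded in the nucleus, with Kars and Gars serving both compartments from 1 gene each. Several cytosolic enzymes are held together in a multisynthetase complex, while others work alone. In many cell types the transcription factor ATF4, which responds to amino acid shortage, raises the genes of cytosolic synthetases together with those of amino acid synthesis and uptake, and lymphocytes preparing to divide are known to enlarge their capacity for protein synthesis.

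The samples were B lymphocytes of mice on a C57BL/6 background, sorted by the B cell surface protein B220 from cell suspensions of spleens, thymi and lymph nodes, with 1 array for each of 4 groups. Wild-type cells and cells of Tilcara mice, a PKCbeta mutant model, were each either non-stimulated or kept for 4 hours with the phorbol ester PMA at 10 ng/mL, which activates protein kinase C, and an ionophore at 1 µM, which lets calcium in. The labels give neither the age of the mice nor the number that contributed to an array, and describe the Tilcara change no further. No group was replicated, and every contrast sets 1 array against another.

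Signals were RMA values on a log2 scale, on which a difference of 1 is 2-fold. A gene counted as measured when its highest signal reached 3.83 (the median over named probe sets in the 4 arrays), and 12456 genes did so, among them all 33 synthetase genes. The words rose and fell are kept for calls by limma at a Benjamini-Hochberg adjusted p under 0.05. The fit held stimulation and genotype over the 4 arrays. Each state has 2 samples, the 2 genotypes, which leaves 1 residual degree of freedom. limma combines how unlike the genotypes responded in a gene with a prior spread from all genes, weighted by 3.46 degrees of freedom. The smallest SE of any gene was 0.146, and an SE near it reflects mostly that prior. A p-value therefore depends on the size of the response as well as on how alike the genotypes responded. B cell markers were above 3.83 in all arrays, 7 of 7 with a probe set, but their summed linear signal was 10281 and 9991 in the non-stimulated wild-type and Tilcara arrays against 1554 and 2163 in the stimulated ones. The sum over 8 T cell markers ran from 169 in non-stimulated wild type to 81.4 in stimulated Tilcara, and that over 7 NK cell markers was lower with stimulation, at 75.0 against 209.9 in wild type and 71.6 against 219.7 in Tilcara. The sum over 9 neutrophil markers was 795 in non-stimulated wild type and between 68.8 and 90.4 elsewhere, and that over 9 macrophage markers was between 172 and 275. Plasmacytoid dendritic cell markers, 4 of 4, summed to 2353 and 2667 in the non-stimulated wild-type and Tilcara arrays and to 449.8 and 607 in the stimulated ones, mostly from Ly6d, which B cells also express. Of 5 erythroid markers 1, Car2, had a probe set, with linear signals from 24.8 to 64.5. The part of these shifts in the synthetase values was not tested, and a change in the number of cells of a type cannot be told apart from a change in RNA per cell.

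The cytosolic synthetases rose nearly as a whole in the stimulated arrays. Of the 17 genes, 15 rose, 1 fell and 1 was not called, where limma called 22% of all genes as risen and 22.8% as fallen. The median log2 difference was 1.63 in wild type and 1.62 in Tilcara, against 0.03 and 0.04 over all 12456 genes. By size, 14 of the 17 were at least 2-fold higher in wild type, where 13.4% of all genes were, and 14 in Tilcara, where 11.9% were. In 15 of the 17 both stimulated arrays lay above both non-stimulated arrays, as in 39.1% of all genes.

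The largest responses were those of Cars, Yars, Iars and Tars. Cars (probe set 17498271), which charges the tRNA of cysteine, had signals of 5.60 in non-stimulated and 8.30 in stimulated wild-type cells, and of 5.53 and 8.26 in Tilcara. It was 6.47-fold higher in wild type and 6.63-fold in Tilcara, and 0.963% of all genes had a larger mean response (limma, log2 change 2.71, SE 0.15, adjusted p = 0.00121). Yars (probe set 17418952), for tyrosine, read 5.48 and 8.16 in wild type and 5.37 and 8.02 in Tilcara, a rise of 2.67 (limma, SE 0.15). For both genes the genotypes differed by less than 0.15 in either state, while the states differed by more than 2.6.

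Iars, the isoleucine enzyme of the multisynthetase complex, read 7.14 and 9.73 in wild type and 6.78 and 9.48 in Tilcara. Tars, for threonine, read 6.66 and 9.37 in wild type and 6.77 and 9.29 in Tilcara. They rose by 2.64 and 2.61 (limma, SE 0.15 for each), so the mean responses of these 4 genes lay within 0.10 of each other, less than the SE of any of them.

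Nars, Gars and Lars came next. Nars, for asparagine, had the values 8.02 and 10.33 in wild type and 8.23 and 10.34 in Tilcara. Gars, which charges glycine tRNA in the cytosol and in mitochondria, read 7.51 and 9.77 in wild type and 7.32 and 9.65 in Tilcara. Lars, the leucine enzyme of the complex, went from 7.42 to 9.49 in wild type and from 7.60 to 9.46 in Tilcara. These were differences of 4.20-fold to 4.97-fold in wild type and of 3.63-fold to 5.03-fold in Tilcara.

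Promoter sequences were looked at because the cytosolic members moved together. RefSeq (GRCm38.p6) gave a window from 250 bases before to 50 bases after the start for 24 of the 33 genes, 10 cytosolic and 14 mitochondrial. The core of the C/EBP-ATF response element, which ATF4 binds, was searched as TGATGNAA on both strands. It was present in 4 of the 10 cytosolic genes, Gars, Iars, Tars and Yars, and in none of the 14 mitochondrial genes. Of all 27025 genes with a window, 4.51% held it. The 4 genes had a median response of 2.63 in wild type and 2.58 in Tilcara. The 6 cytosolic genes without the element (Farsa, Farsb, Kars, Mars1, Qars and Sars) had one of 1.41 and 1.45, and the difference was not tested. Cars, Hars, Lars, Nars, Rars, Vars and Wars had no window, so whether they hold the element is not known. They include Cars, with the largest mean response, and Vars, the cytosolic gene that fell. The stretch from 120 bases before to 30 bases after the start is shown for the 4 genes with the element. For contrast it is also shown for Qars, a cytosolic gene that limma did not call, and Yars2, the mitochondrial partner of Yars. Capitals mark TGATGNAA or its reverse complement and the E-box CACGTG, bound by MYC and MAX; the stretches are Gars at chr6:55037881-55038030 (plus strand), Iars at chr13:49682010-49682159 (plus strand), Tars at chr15:11399629-11399778 (minus strand), Yars at chr4:129189783-129189932 (plus strand), Qars at chr9:108507885-108508034 (plus strand) and Yars2 at chr16:16302845-16302994 (plus strand).
Gars: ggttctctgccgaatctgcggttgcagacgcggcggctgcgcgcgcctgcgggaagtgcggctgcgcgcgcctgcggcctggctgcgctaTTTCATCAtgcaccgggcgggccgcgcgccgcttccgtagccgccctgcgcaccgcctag
Iars: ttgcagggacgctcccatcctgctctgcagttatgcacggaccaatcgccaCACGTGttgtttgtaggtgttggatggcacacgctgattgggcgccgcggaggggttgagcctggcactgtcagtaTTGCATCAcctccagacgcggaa
Tars: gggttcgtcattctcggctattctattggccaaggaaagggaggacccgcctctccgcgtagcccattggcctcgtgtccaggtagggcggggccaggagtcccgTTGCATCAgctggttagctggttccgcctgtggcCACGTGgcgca
Yars: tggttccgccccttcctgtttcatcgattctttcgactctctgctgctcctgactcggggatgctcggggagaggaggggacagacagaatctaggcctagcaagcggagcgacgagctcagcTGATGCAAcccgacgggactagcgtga
Qars: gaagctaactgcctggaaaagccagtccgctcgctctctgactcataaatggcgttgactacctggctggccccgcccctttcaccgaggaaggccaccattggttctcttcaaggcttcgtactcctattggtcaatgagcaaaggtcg
Yars2: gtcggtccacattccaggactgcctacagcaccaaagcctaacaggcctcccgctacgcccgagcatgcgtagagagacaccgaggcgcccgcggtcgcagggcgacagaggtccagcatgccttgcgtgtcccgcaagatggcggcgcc
The first base of the element lay at position −30 in Gars, −15 in Tars, 4 in Yars and 8 in Iars, counted from the start. The E-box was present in 3 of the 10 cytosolic genes (Farsb, Iars and Tars) and in 1 of the 14 mitochondrial genes (Ears2). The share over all genes with a window was 8.09%. The 3 cytosolic genes with the E-box had a median response of 2.59 in wild type and 2.52 in Tilcara. The 7 without it had one of 1.62 in each genotype. Iars and Tars hold both the E-box and the C/EBP-ATF element, so the 2 motifs cannot be told apart by these medians. The motif of the factor NRF1, also searched on both strands, was held by 3 cytosolic genes (Farsb, Kars and Tars) and 2 mitochondrial genes (Iars2 and Mars2). Of all genes with a window, 5.19% held this motif, which is not set in capitals. The 3 cytosolic genes with it had medians of 1.62 in wild type and 1.79 in Tilcara, and the 7 without it 1.725 and 1.62. None of these differences was tested. A match describes the letters and does not show that a factor was bound.

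**Figure D1:**
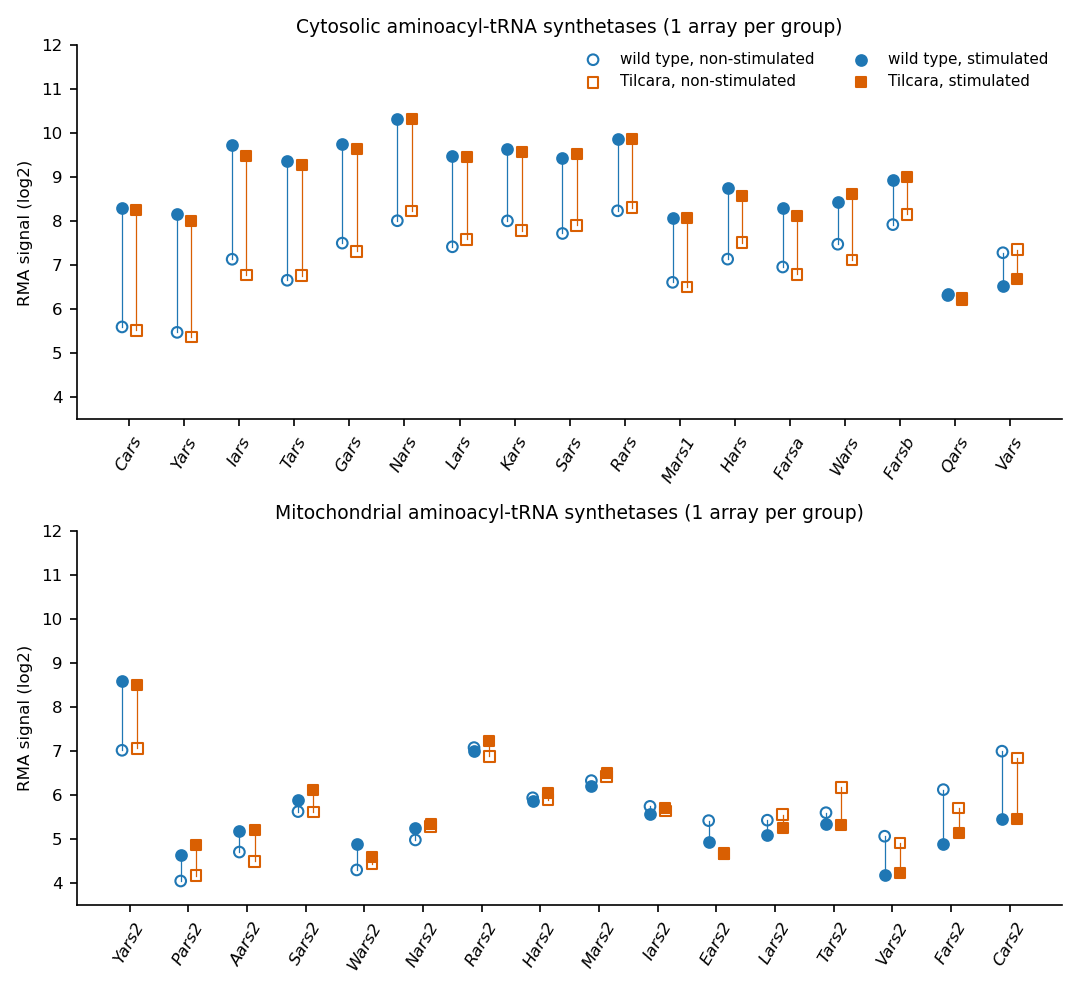
RMA signals (log2, vertical axis) of the 17 cytosolic (top) and 16 mitochondrial (bottom) synthetase genes, ordered by mean response; blue circles are wild type, orange squares Tilcara, open symbols non-stimulated, filled symbols stimulated, and each symbol is 1 array. From Cars to Farsb the filled symbols lie above the open ones in both genotypes, whereas most mitochondrial genes show short lines, with Yars2 and Cars2 as the longest.

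A middle group of cytosolic genes rose by 1.34 to 1.71. It held Kars (lysine; limma log2 change 1.71), Sars (serine; 1.67), Rars (arginine; 1.60), Mars1 (methionine; 1.52), Hars (histidine; 1.34) and Farsa (1.34), the alpha subunit of the phenylalanine enzyme. Kars, like Gars a gene for both compartments, read 8.01 and 9.64 in wild type and 7.79 and 9.58 in Tilcara. Rars, a member of the complex with Kars and Mars1, read 8.24 and 9.87 in wild type and 8.31 and 9.87 in Tilcara. Sars, which works outside the complex, read 7.73 and 9.45 in wild type and 7.91 and 9.53 in Tilcara. In these 3 genes the stimulated signals of the genotypes differed by at most 0.07 (Sars). Mars1, which also charges the initiator tRNA, read 6.62 and 8.08 in wild type and 6.51 and 8.08 in Tilcara.

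The remaining genes of this kind were the subunits of the phenylalanine enzyme and the tryptophan enzyme. Farsa read 6.96 and 8.32 in wild type and 6.80 and 8.12 in Tilcara, 2.55-fold and 2.50-fold higher. Farsb, the beta subunit, rose by 0.94 (limma, SE 0.15, adjusted p = 0.00945) from 7.93 to 8.95 in wild type and from 8.16 to 9.02 in Tilcara. Wars, for tryptophan, read 7.48 and 8.45 in wild type and 7.13 and 8.62 in Tilcara, which made it 1.95-fold higher in the former and 2.82-fold in the latter (limma, log2 change 1.23, SE 0.19, adjusted p = 0.00886). The 8 genes from Kars to Wars are among the 15 whose stimulated arrays lay above the non-stimulated ones.

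Both exceptions among the cytosolic genes were alike in the genotypes. Qars (probe set 17521794), the glutamine enzyme of the complex, had nearly the same signal in the 4 arrays, 6.32 and 6.35 in wild type and 6.25 and 6.21 in Tilcara (limma, log2 change −0.01, SE 0.15, adjusted p = 0.974). Vars, for valine, was lower after stimulation, at 7.29 and 6.54 in wild type and 7.36 and 6.69 in Tilcara, and it fell by 0.71 (limma, SE 0.15, adjusted p = 0.0196). Qars lies within the same complex as 5 members that rose by 1.52 to 2.64.

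Cytosolic genes inside and outside the complex, and of either structural class, had close medians. The 6 genes of the set that belong to the complex (Iars, Kars, Lars, Mars1, Qars and Rars; Eprs and the scaffold genes are not counted here) had a median difference of 1.63 in wild type and 1.68 in Tilcara, and the 11 others had medians of 1.73 and 1.62. Synthetases fall into 2 classes by the fold of their catalytic core. The 9 cytosolic class I genes had medians of 1.63 and 1.57 and the 8 class II genes 1.68 and 1.71. All 8 class II genes rose and 7 of the 9 in class I did, where 22% of all genes rose. Class I holds both Qars and Vars, and the classes were not compared by a test.

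The mitochondrial synthetases held genes that rose and genes that fell. Of the 16 genes, 3 rose, 3 fell and 10 were not called by limma, both counts near the array-wide shares of 22% risen and 22.8% fallen. The median log2 difference was −0.10 in wild type and 0.07 in Tilcara, near the 0.03 and 0.04 of all genes. At least 2-fold higher was 1 gene in each genotype, Yars2, where 13.4% of all genes were in wild type and 11.9% in Tilcara. At least 2-fold lower were 2 genes in wild type (Cars2 and Fars2), where 15.9% of all genes were, and 1 in Tilcara (Cars2), where 14.3% were. Both stimulated arrays lay above both non-stimulated arrays in 5 of the 16, where 39.1% of all genes did. They lay below them in 5, where 35.5% of all genes did.

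Yars2, for tyrosine in mitochondria, was the member of its group with the largest rise. It read 7.02 and 8.58 in wild type and 7.06 and 8.49 in Tilcara, a response of 2.96-fold and 2.70-fold (limma, SE 0.15, adjusted p = 0.00295). Pars2, for proline, stood at 4.04 and 4.65 in wild type and at 4.16 and 4.87 in Tilcara, and Aars2, for alanine, at 4.70 and 5.19 and at 4.49 and 5.21. Both rose by less than 2-fold, Pars2 by 0.65 (limma, SE 0.15, adjusted p = 0.0246) and Aars2 by 0.61 (limma, SE 0.16, adjusted p = 0.0354; 0.0572 when genes with low signals were kept in the fit).

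In the opposite direction, Cars2 (probe set 17507440), the mitochondrial cysteine enzyme, had 7.00 and 5.45 in wild type and 6.84 and 5.46 in Tilcara. It fell by 1.46 (limma, SE 0.15, adjusted p = 0.00325) and was 2.92-fold lower in wild type and 2.60-fold in Tilcara. Fars2, for phenylalanine, read 6.12 and 4.89 in wild type and 5.71 and 5.14 in Tilcara, and fell by 0.90 with a wider error (limma, SE 0.21, adjusted p = 0.0286), since its decrease was 2.34-fold in wild type and 1.48-fold in Tilcara. Vars2, for valine, went from 5.06 to 4.19 in wild type and from 4.91 to 4.23 in Tilcara, and fell by 0.78 (limma, SE 0.15, adjusted p = 0.0167). These 3 genes are among the 5 mitochondrial genes whose stimulated arrays lay below the non-stimulated ones.

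The remaining 10 mitochondrial genes had mean responses between −0.55 (Tars2) and 0.39 (Sars2). Tars2, for threonine, read 5.60 and 5.34 in wild type and 6.17 and 5.32 in Tilcara, so the stimulated signals were nearly equal and the non-stimulated ones were not. Sars2, for serine, read 5.62 and 5.89 in wild type and 5.61 and 6.12 in Tilcara. The leucine, isoleucine, methionine, histidine and arginine enzymes Lars2, Iars2, Mars2, Hars2 and Rars2 responded by −0.34 to −0.07 in wild type and by −0.30 to 0.35 in Tilcara. Nars2, for asparagine, was the single member with 2 probe sets, and they disagreed. The brighter (mean signal 5.21) differed by 0.27 in wild type and 0.05 in Tilcara, and the other (mean signal 5.13) by 1.51 and 1.07, so the response of Nars2 depends on the probe set.

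The contrast between compartments was visible amino acid by amino acid. Both enzymes were measured for 13 amino acids, which make 14 pairs because the phenylalanine enzyme of the cytosol has 2 subunits. In all 14 the cytosolic gene had the higher response in both genotypes, and in 11 it did so by at least 1 in both. The median of the cytosolic minus the mitochondrial response was 1.88 in wild type and 1.46 in Tilcara. The widest was cysteine, where Cars and Cars2 went opposite ways and their responses were apart by 4.24 in wild type and 4.11 in Tilcara. Threonine followed with 2.96 and 3.37, and isoleucine with 2.75 and 2.62. Many mitochondrial genes had signals nearer the filter value of 3.83. All 17 cytosolic genes reached 6 in at least 1 array, and several mitochondrial genes, such as Pars2, Wars2 and Vars2, did not. The part of signal level in these gaps was not tested.

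Tyrosine and valine were paired differently. For tyrosine both enzymes rose, with Yars ahead of Yars2 by 1.12 in wild type and 1.22 in Tilcara. For valine both fell, and the responses of Vars and Vars2 were apart by 0.12 and 0.02. The gap between Wars and Wars2, for tryptophan, was 0.39 in wild type and 1.33 in Tilcara, and that of Hars and Hars2 was 1.70 and 0.90. The asparagine gap of 2.04 and 2.05 rests on the brighter Nars2 probe set. The other differed by 1.51 in wild type, against 2.31 for Nars. With that probe set the pair would not count among those apart by at least 1 in both genotypes.

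**Figure D2:**
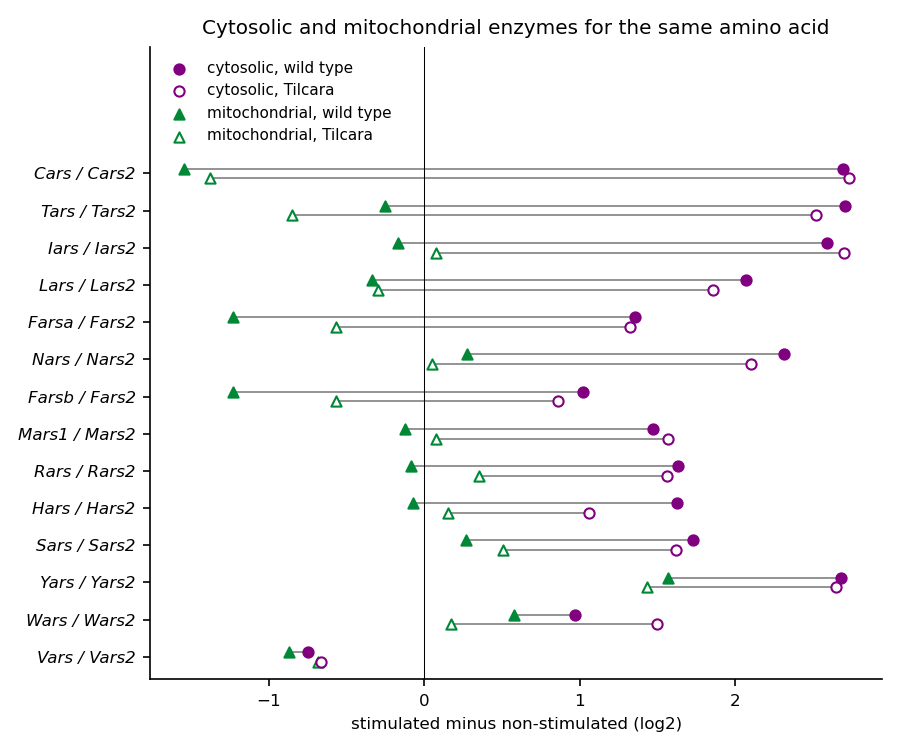
Response to stimulation (log2 difference, horizontal axis) of the cytosolic (purple circles) and mitochondrial (green triangles) enzyme for the same amino acid, filled in wild type and open in Tilcara, with a grey line joining each pair. The circles lie to the right of the triangles in all 14 pairs, most widely for Cars and Cars2 (4.24 and 4.11) and least for Vars and Vars2 (0.12 and 0.02).

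Tilcara and wild-type cells had similar synthetase signals in both states, as held for most genes on the array. The counts of members at 2-fold below are near the shares over all genes and do not set the synthetases apart. Without stimulation no member differed by 2-fold, where 0.425% of all genes were at least 2-fold higher in Tilcara and 0.658% at least 2-fold lower, and the median size of the difference was 0.16 for the members and 0.18 for all genes. The most different were Ears2, for glutamate in mitochondria, at 5.42 in wild type and 4.68 in Tilcara, and Tars2, at 5.60 and 6.17. With stimulation no member differed by 2-fold either, against 0.955% of all genes higher and 0.747% lower. The differences then ran from −0.27 (Wars2) to 0.29 (Mars2), with a median size of 0.13 against 0.18 for all genes. limma called 0 members and 0 genes of the whole array for genotype; at an unadjusted p under 0.05 it gave 1 member, Ears2, and 667 genes.

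The response itself was close in both genotypes. Over the 33 genes, which share the same 4 arrays, Pearson's r between the responses was 0.974 and Spearman's rho 0.964, given as a description, with 0.913 and 0.867 over all genes. By compartment, r and rho were 0.971 and 0.927 over the 17 cytosolic genes. Over the 16 mitochondrial genes they were 0.904 and 0.885, near those of all genes. No member's response differed by 1 or more between genotypes, as that of 3.97% of all genes did, so this count too is near the share over all genes. The widest differences of the Tilcara minus the wild-type response were 0.66 for Fars2, −0.59 for Tars2, −0.57 for Hars and 0.53 for Wars. Hars read 7.14 and 8.77 in wild type and 7.52 and 8.58 in Tilcara, so its signal began higher and ended lower in the mutant. With 1 array per group these differences could not be tested.

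**Figure D3:**
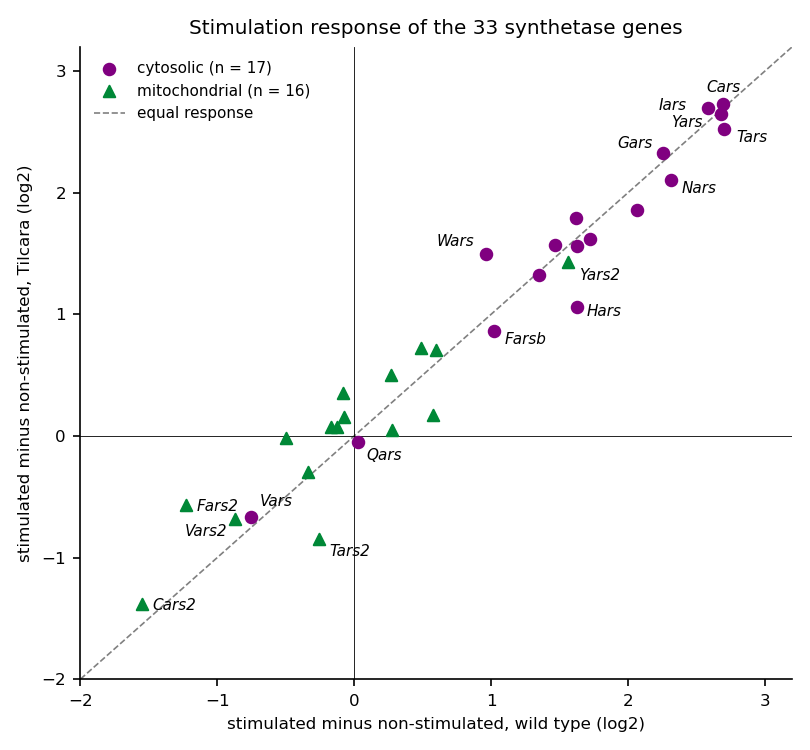
Stimulated minus non-stimulated signal (log2) in wild type (horizontal axis) and in Tilcara (vertical axis) for the 33 synthetase genes; purple circles are cytosolic, green triangles mitochondrial, and the dashed line marks equal responses. Of the 17 cytosolic genes 15 lie at 0.86 or above on both axes, Qars sits at 0.03 and −0.05, and Vars lies among the mitochondrial genes that were lower.

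Genes that work beside the synthetases were read from lists of their partners. Eprs, whose product charges both glutamate and proline and belongs to the complex, went from 7.77 to 9.89 in wild type and from 7.82 to 10.03 in Tilcara, and rose by 2.16 (limma, SE 0.15, adjusted p = 0.00156), within the range of the cytosolic members. Of the scaffold genes of the complex, Eef1e1 read 6.80 and 10.15 in wild type and 7.14 and 9.84 in Tilcara. It rose by 3.03 (limma, SE 0.21, adjusted p = 0.0016), more than any member. Aimp1, another scaffold, differed by 0.75 and 0.22 and was not called (limma, adjusted p = 0.107). Neither was Tarsl2, a second threonine enzyme (0.16 and −0.30), nor Prorsd1 (−0.32 and −0.40).

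The list of ATF4 and amino acid response genes holds 22 genes, of which 18 passed the filter on low signals. Of these 17 rose, where 22% of all genes did, and 1, the growth inhibitor gene Ddit4, fell. Members that passed only through their high state had to differ, so this count is given as a description and is no measure of the list. Slc7a5, for a transporter of large amino acids, rose by 4.33, Mthfd2, a mitochondrial folate enzyme gene, by 4.14 and Psat1, of serine synthesis, by 3.44 (limma, SE 0.15 to 0.20). The Atf4 transcript itself read 9.78 and 10.40 in wild type and 9.96 and 10.53 in Tilcara, a rise of 0.59 (limma, SE 0.15, adjusted p = 0.0312).

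Among genes for tRNA ends and export, 11 of 17 rose and 1 fell, where limma called 22% of all genes as risen and 22.8% as fallen. The gene that fell was Hsd17b10, a subunit of the mitochondrial RNase P, whose other subunit genes Prorp and Trmt10c rose by 0.63 and 1.12. Xpot, which exports tRNA from the nucleus, rose by 2.69, Pop1, of the RNase P and MRP complexes that trim precursor RNAs, by 2.64, and Elac2, which cuts tRNA 3′ ends, by 2.39 (limma, adjusted p = 0.00125 to 0.00141). Of 19 genes of RNA polymerase III, which transcribes tRNA genes, and its factors, 10 rose (22% over all genes) and 4 fell (Polr3gl, Gtf3c1, Gtf3c3 and Maf1), the latter near the 22.8% over all genes. Polr3g read 4.89 and 7.42 in wild type and 5.43 and 7.11 in Tilcara, and rose by 2.10 (limma, SE 0.25, adjusted p = 0.00442). Its paralogue Polr3gl, which takes the same place in the enzyme, was at 6.38 and 4.00 in wild type and 6.38 and 3.61 in Tilcara, and fell by 2.57 (limma, SE 0.17, adjusted p = 0.00153).

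Elongation factors take the charged tRNA to the ribosome and move it along. The cytosolic factor genes Eef1a1 and Eef2 had nearly equal signals in the 4 arrays, with limma log2 changes of 0.04 and −0.07 that were not called. The mitochondrial elongation factor genes Tufm, Tsfm and Gfm1 rose by 1.08, 1.04 and 1.39, although most mitochondrial synthetases were not called, and Gfm2, for mitochondrial ribosome recycling, fell by 0.63 (limma, SE 0.18, adjusted p = 0.0483). In all, 5 of the 9 elongation genes rose, the others being Eef1d and Eef1g, and Gfm2 alone fell, against 22% and 22.8% over all genes. Of the genes that make glutamine tRNA in mitochondria, where a glutamate is converted on the tRNA, Qrsl1 fell by 1.16 (limma, SE 0.15, adjusted p = 0.00561), and Gatb and Gatc were not called. Of 6 genes of the selenocysteine route, 4 rose, Sephs2 by 1.33, Sephs1 by 1.25, Sepsecs by 0.54 and Secisbp2 by 0.51, against 22% of all genes.

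**Figure D4:**
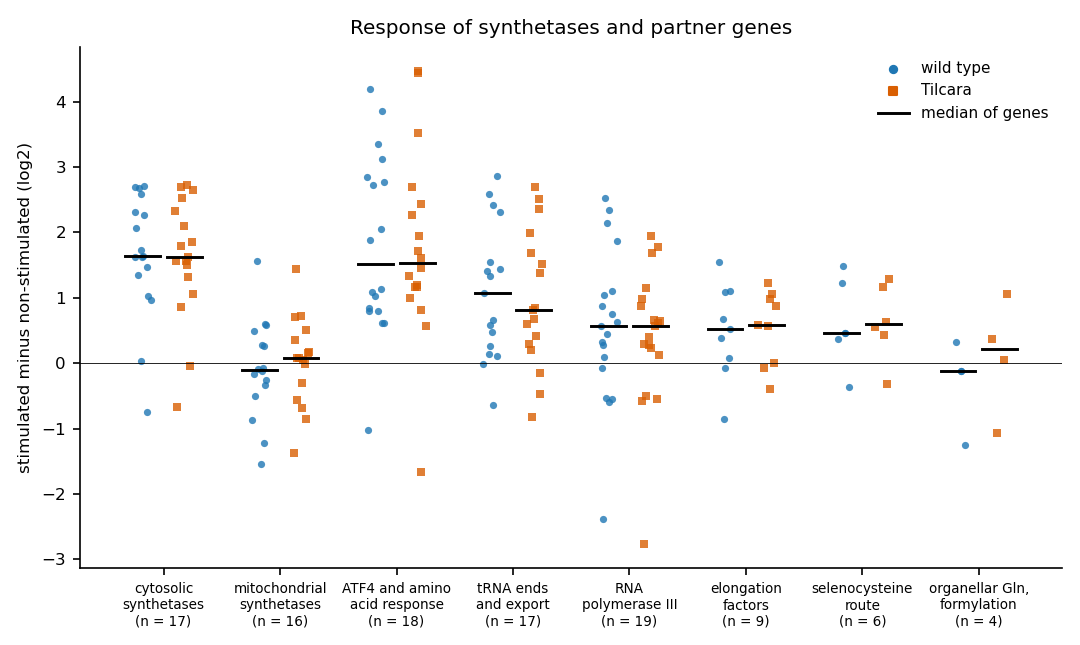
Response to stimulation (log2 difference, vertical axis) of each measured gene in wild type (blue circles) and Tilcara (orange squares), for both groups of synthetases and 6 partner lists, with black bars at the median of the genes. The cytosolic synthetases have medians of 1.63 and 1.62 and the mitochondrial ones −0.10 and 0.07; points are spread sideways for legibility.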

How the data were processed

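Each of the 4 samples was hybridised to 1 Affymetrix array. The deposited values were log2 signals for 41345 probe sets, made by the authors with RMA, per the submitters' processing notes. RMA subtracts background, gives all arrays the same distribution and combines the probes of a set, so a change in total RNA per cell cannot be seen. The sources used here name no version, settings or genome build. Array medians lay between 3.73 and 3.79.

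By the platform's annotation 23521 probe sets carried 1 symbol, 1814 several and 16010 none. The brightest probe set by mean stood for its gene. limma 3.58.1 in R 4.3.3 was fitted over the 12456 genes used, with stimulation and genotype as terms. The fit had 1 residual degree of freedom and Benjamini-Hochberg adjustment. It was also run on simulated data with the same noise for every gene and few changed genes. Those settings are unlike these data, so that run gives no error rate for the calls made here. Differences between single arrays carry no test, and the number of arrays limits the precision. RefSeq promoter windows were searched by letters. The members and lists were chosen with earlier results of these data known. Named with values are the largest and smallest responses of each compartment, members that differ between genotypes, pairs, and up to 3 genes of each partner list; Farsb, Wars, Aimp1, Atf4, Polr3gl, Eef1a1, Eef2, Gfm2 and others were added after their values were seen. Alternatives were median centring, cyclic loess, the mean over probe sets, no filter or a minimum of 6, a 1.5-fold size, 1 factor per fit and an intensity trend.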

Additional observations from a re-analysis of the deposited data

Results flagged for a closer look

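The responses of 5 members had opposite signs in the genotypes, and these differences were not tested. Rars2 differed by −0.08 in wild type and 0.35 in Tilcara, which are apart by 0.44. For Iars2 the responses were −0.17 and 0.07 (apart by 0.24), for Hars2 −0.07 and 0.15 (0.23), for Mars2 −0.13 and 0.08 (0.20), and for Qars 0.03 and −0.05 (their difference, Tilcara minus wild type, is −0.077). None of these 5 genes was called by limma for stimulation, and each response was under 2-fold.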

How the results depend on the processing

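Under median centring, cyclic loess, the mean over probe sets, no filter and the minimum of 6, and in limma with 1 factor or an intensity trend, the same 15 of 17 cytosolic genes rose, and the count of all members that rose was 16 to 19 against 18. The share over all genes moved with the filter. Of all genes fitted, 2740 of 12456 rose in the main fit, 2415 of 6500 with the minimum of 6 and 2460 of 22180 with no filter. Under the other settings 2558 to 2954 rose, of 12350 to 12456 genes. The minimum of 6 left 25 of the 33 genes, among them all 17 cytosolic ones, so every gene it removed was mitochondrial. The median response of the mitochondrial genes that were left was −0.10 in wild type and 0.11 in Tilcara. The median response of the cytosolic genes was lowest after cyclic loess, 1.42 in wild type and 1.41 in Tilcara. With a size of 1.5-fold in place of 2-fold, members lower after stimulation numbered 4 in each genotype instead of 2 and 1, and 1 member (Ears2) instead of 0 was lower in non-stimulated Tilcara. With the mean over probe sets Nars2 rose by 0.73 (limma, adjusted p = 0.0223), and with no filter Aars2 lost its call (limma, adjusted p = 0.0572); the other calls of members were kept where the gene was fitted. No member was called for genotype under any of these settings. No pairing of replicates was possible because each group had 1 array. The main fit already holds genotype as a term beside stimulation, and the fit without genotype is the one with 1 factor.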
